A study of Mus musculus with 16 samples.

Results

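Fibroblasts were followed through 10 genes commonly used to mark them: Pdgfra, Pdgfrb, Dcn, Lum, Fap, Dpt, Pi16, Mfap5, Acta2 and Pdpn. The members were chosen by symbol, and all 10 were found, each listed once per table, among the 52916 symbols common to the tables of 16 RNA-seq libraries. The libraries came from HM1 tumours, a mouse ovarian cancer model, grown with or without a supplement of the sugar mannose. There were 10 libraries of whole tissue, 5 from control and 5 from mannose tumours. The other 6 were of CD8 T cells, cytotoxic lymphocytes sorted from tumours of each kind, with 3 controls and 3 with mannose. The title of the series names anti-PD-1 therapy, but the labels do not say whether any of the 4 groups received an antibody, and they give no strain, sex, age, dose, duration or site of growth. Nothing ties the replicates to separate animals, so p-values measure only the spread between these samples. Levels are TPM, a transcript abundance corrected for length and scaled to a common total, which can be compared between genes of one library.

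Fibroblasts lay down and remodel the collagen-rich matrix of a tissue, and in tumours they form a large part of the stroma around cancer cells. They respond to platelet-derived growth factors through the receptor kinases encoded by Pdgfra and Pdgfrb. Dcn and Lum encode decorin and lumican, small leucine-rich proteoglycans that bind collagen fibrils. Dpt, Pi16 and Mfap5 (dermatopontin, peptidase inhibitor 16 and a microfibril protein) mark fibroblasts of connective tissue, whereas Fap (a cell-surface protease) and Acta2 (smooth muscle actin) are used as marks of activated fibroblasts. Several of these genes are not exclusive to fibroblasts. Pdgfrb and Acta2 are also expressed by pericytes and vascular smooth muscle, and Pdpn, which encodes the membrane glycoprotein podoplanin, also by lymphatic endothelium and some macrophages.

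Promoter sequences are shown for Pdgfra and Pdpn, because these genes moved in opposite directions in the CD8 libraries described below. Each window is the 250 bases before the transcription start in RefSeq's table for GRCm38.p6, which held promoters for 5 of the 10 genes, and reads 5′ to 3′ on the gene's strand. The Pdgfra window lies on the plus strand at chr5:75152001-75152250 and the Pdpn window on the minus strand at chr4:143299565-143299814. Neither overlaps an annotated exon. Capitals mark the short SMAD element CAGAC, which in Pdgfra is read on the opposite strand.
Pdgfra: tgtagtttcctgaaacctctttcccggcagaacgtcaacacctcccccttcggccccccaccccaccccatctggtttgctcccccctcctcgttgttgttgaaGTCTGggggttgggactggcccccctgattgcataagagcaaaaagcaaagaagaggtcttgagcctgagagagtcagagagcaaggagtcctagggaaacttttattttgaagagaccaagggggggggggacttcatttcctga
Pdpn: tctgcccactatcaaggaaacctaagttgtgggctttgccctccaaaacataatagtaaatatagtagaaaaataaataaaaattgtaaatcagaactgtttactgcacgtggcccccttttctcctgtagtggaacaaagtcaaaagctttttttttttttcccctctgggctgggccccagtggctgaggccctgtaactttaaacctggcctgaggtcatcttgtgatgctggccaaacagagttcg
A search of both strands for the TATA box (TATAAA), the CCAAT box, the CArG box, the MCAT element (CATTCC), the AP-1 element (TGANTCA), the SMAD element and the GC box (GGGCGG) matched only CAGAC in the Pdgfra window, and none of them in the Pdpn window. CAGAC was present in 42.2% of 32851 promoter windows of this length, so a match is common.

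Some libraries stood apart. Among the tumours, control 1 was the lowest of 10 libraries for 9 of the 10 fibroblast genes, and mannose 3 was the highest for 9 of 10. Among the CD8 libraries, the shares of 22 T cell receptor beta V segments were almost the same in controls 1 and 2 (Pearson r = 0.999 across segments) and in mannose 1 and 2 (r = 0.994), while every other pair had r from 0.184 to 0.733. The labels do not say whether the libraries of such a pair share cells or an animal. Values given as n = 3 and the CD8 tests treat all libraries as separate samples, and if a pair were 1 sample they would rest on 2 per group. The tumour results are therefore also given without control 1 and mannose 3, and many of the CD8 results with each like pair averaged into 1 library. The comparison of the 2 tissues at the end was fitted in neither way. In the 3 CD8 control tables the value column carries a mannose heading, and groups were taken from the sample labels. Read depth is unknown, and 12345 to 13820 symbols reached 1 TPM in a tumour and 13538 to 14384 in a CD8 library.

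Whole tumours expressed all 10 genes, with a clear order at the top. Acta2 had the highest level in 10 of 10 tumours, with a mean of 105 ± 72.5 TPM (SD, n = 10). Dcn (mean 29.95, range 9.76 to 66.3 TPM), Pdgfrb (27.3 ± 10.4 TPM) and Mfap5 (20.9 ± 15.6 TPM) followed. Pdpn, Pi16, Lum and Dpt lay between 7.73 and 6.21 TPM, and Fap (3.80 ± 1.69 TPM) and Pdgfra (3.69 ± 2.19 TPM) were lowest. Below Acta2, no pair of neighbours held its order in all tumours. Pdgfrb exceeded Mfap5 in 8 of 10 and Mfap5 exceeded Pdpn in 8 of 10, whereas Dcn exceeded Pdgfrb in 6. From Pdpn down, neighbours kept their order in 4 to 6 of 10 tumours and could not be separated. Of both receptor genes, Pdgfra was the lower in every tumour.

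The genes differed widely in how much they varied between tumours. Dpt spanned a 79.4-fold range, from 0.30 TPM in control 1 to 23.8 TPM in mannose 3, with a coefficient of variation of 117%. Pi16 spanned 19.99-fold, Lum 17.7-fold, Mfap5 17.0-fold, Pdpn 16.1-fold and Pdgfra 15.2-fold. Acta2 spanned 10.7-fold and Dcn 6.80-fold. Pdgfrb and Fap, at 5.60-fold and 3.78-fold, varied least, and the coefficient of variation of Pdgfrb was 38.3%.

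**Figure D1:**
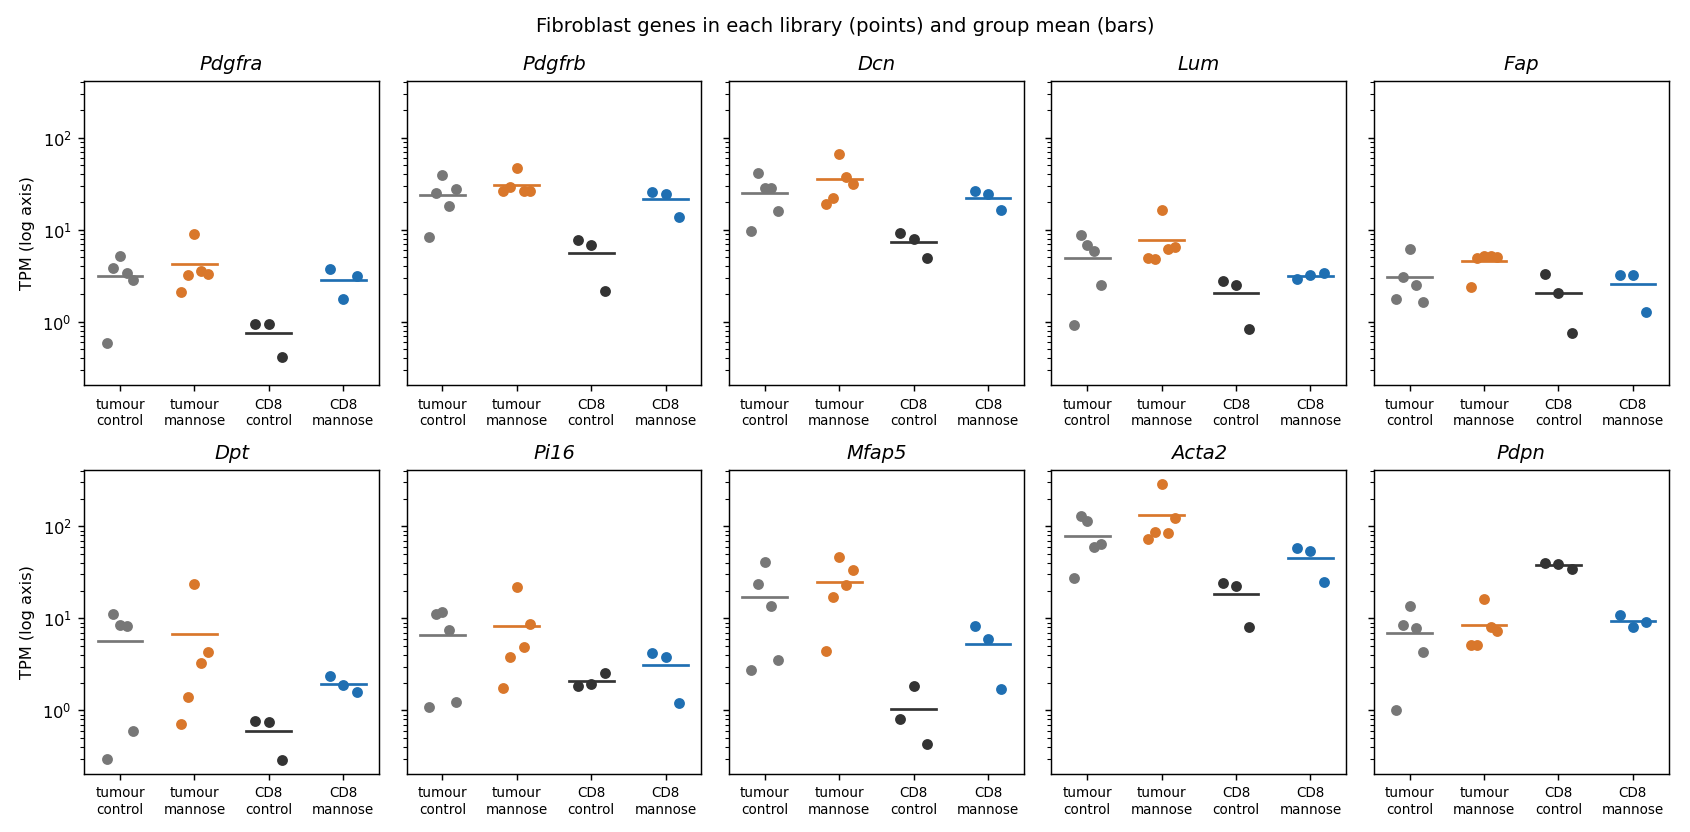
TPM of each of the 10 genes in all 16 libraries, on a log axis, with 1 point per library and groups as labelled. Control 1 is the lowest tumour for 9 genes and mannose 3 the highest for 9, and Pdpn alone lies higher in the CD8 control libraries than in all tumours.

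The fibroblast genes rose and fell together from tumour to tumour. All 45 pairs had a positive Pearson correlation of log2(TPM + 1) over the 10 tumours, from 0.554 to 0.974 with a median of 0.863, and 42 passed an adjusted permutation p of 0.05 over the 45 pairs. By Spearman's rho the median was 0.879 and 36 pairs passed. Taken as deviations from the control and mannose means, the median r was 0.873, so the relation was as strong within the groups. The closest pair was Dpt and Pi16 (r = 0.974, rho = 0.976, permutation adjusted p = 0.00045 and 0.000675). Next by Pearson r, though not by rho, were the adjacent proteoglycan genes Dcn and Lum (r = 0.966, rho = 0.939, permutation adjusted p = 0.00045 and 0.00131). Correlations between pairs of other genes were not calculated, so the share of all pairs that would pass is not known. By mean log2(TPM + 1), macrophage markers (5.50 and 7.30), fibrillar collagens and partners (5.21 and 8.15) and T cell markers (0.88 and 3.52) were also lowest in control 1 and highest in mannose 3. So were other fibroblast genes (3.74 and 5.52), contractile and pericyte genes (3.13 and 4.78) and small leucine-rich proteoglycans (1.61 and 3.17), a list that holds Dcn and Lum. Endothelial and epithelial markers were also lowest in control 1 (2.26 and 3.65) but highest in control 3 (3.57 and 4.03). Not all other lists shared the pattern.

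The correlations of Pdgfrb with the other members fell most when 2 tumours were left out. Without control 1 and mannose 3, the 2 tumours farthest from the median for 38 of the 45 pairs, the median r over all 45 pairs fell from 0.863 to 0.694. The 9 pairs that include Pdgfrb then ranged from -0.13 to 0.53, with a median of 0.292, whereas the other 36 ranged from 0.377 to 0.951, with a median of 0.761. Pdgfrb with Dcn went from 0.711 to -0.13 and Pdgfrb with Lum from 0.795 to -0.023. By rho these 2 pairs had not passed even over all 10 tumours (0.347 and 0.377, permutation adjusted p = 0.331 and 0.295). The tumours left out were the extremes of most members, and a narrower range tends to lower r. Dpt with Pi16 kept 0.951 and Dcn with Lum 0.893. Pdgfrb was singled out after its values were seen, and the difference between its pairs and the others was not tested.

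**Figure D2:**
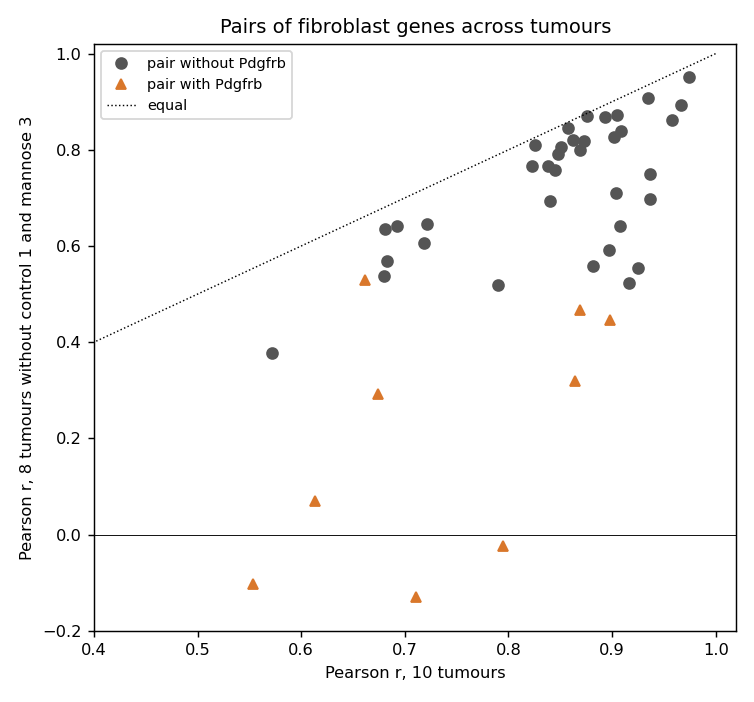
Pearson r of each of the 45 gene pairs over all 10 tumours (x axis) and over 8 tumours, without control 1 and mannose 3 (y axis), with pairs that include Pdgfrb as triangles. The 36 other pairs stay at or above 0.377 on the y axis and the 9 Pdgfrb pairs lie at or below 0.53.

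Outside the 10, the genes most like their mean over the 10 tumours, among 9489 candidates, were Fstl1 (r = 0.985), Cpxm1 (0.977), P4ha3 (0.976), Ddah1 (0.972) and Col3a1 (0.972), given as a description with no test. Fstl1 encodes a secreted glycoprotein, P4ha3 a subunit of the enzyme that hydroxylates collagen prolines, and Col3a1 the chain of type III collagen. Over the 8 tumours without control 1 and mannose 3 their r to the mean of the members lay between 0.920 and 0.974. Col3a1 had a mean of 181 TPM and ranged from 29.5 to 409 TPM.

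The comparison of mannose with control tumours asked whether the supplement changed stromal expression in the whole tissue. No fibroblast gene passed the test in either direction, and neither did any other gene. By limma, 0 of the 10 passed against a background of 0% of 13282 genes tested, and the smallest unadjusted p of a member was 0.0898, for Fap. Over all genes 827 had an unadjusted p under 0.05. In a bulk sample, fewer fibroblasts and less RNA per fibroblast cannot be told apart.

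The collagen-binding proteoglycans did not separate the groups. Dcn measured 9.76, 41.3, 28.6, 28.3 and 15.9 TPM in controls 1 to 5 and 18.9, 21.9, 66.3, 37.2 and 31.4 TPM in mannose 1 to 5. Only mannose 3 exceeded every control, and the 4 other mannose tumours lay within the control range. The log2 difference of Dcn, taken on log2(TPM + 1) as are all below, was 0.50 ± 0.397 (SE), with limma adjusted p = 0.782. Lum measured 0.93 to 8.70 TPM in controls and 4.86 to 16.4 TPM with mannose, a log2 difference of 0.65 (limma adjusted p = 0.758).

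Acta2, the marker of contractile and activated cells, measured 27.3, 128, 113, 59.7 and 64.6 TPM in the controls and 72.0, 86.3, 292, 85.2 and 123 TPM with mannose. Again mannose 3 alone exceeded every control. The means were 78.5 ± 41.2 and 132 ± 91.4 TPM (SD, n = 5 each), with a log2 difference of 0.72 ± 0.448 (SE, limma adjusted p = 0.754). Fap, the other mark of activation, measured 1.77, 3.06, 6.24, 2.53 and 1.65 TPM in controls and 2.37, 4.87, 5.24, 5.24 and 5.03 TPM with mannose. It was the only member with its highest value in a control, and 4 of its 5 mannose tumours exceeded 4 of the 5 controls. Its log2 difference was 0.52 ± 0.282 (SE, limma adjusted p = 0.754).

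The receptors were closer together. Pdgfrb measured 8.33, 24.9, 39.5, 18.2 and 27.6 TPM in controls and 26.0, 29.1, 46.6, 26.1 and 26.0 TPM with mannose, so that 4 of the 5 mannose tumours fell in a narrow band inside the control range. Its log2 difference was 0.48 (limma adjusted p = 0.766). Pdgfra, at 0.59 to 5.17 TPM in controls and 2.11 to 8.94 TPM with mannose, differed by 0.33 (limma adjusted p = 0.831).

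The connective tissue markers were the most uneven. Dpt measured 0.30, 11.1, 8.37, 8.28 and 0.60 TPM in controls and 0.71, 1.39, 23.8, 3.30 and 4.26 TPM with mannose. Controls 1 and 5 were near 0 while controls 2, 3 and 4 exceeded 4 of the 5 mannose tumours, and the log2 difference was 0.014 ± 0.810 (SE, limma adjusted p = 0.996). Pi16 followed the same libraries, with 1.10 to 11.8 TPM in controls and 1.74 to 22.0 TPM with mannose. Mfap5 had the largest difference of the 10, 0.78, with a standard error of 0.728 (limma adjusted p = 0.803).

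The direction of these differences depended on which tumours were kept. All 10 log2 differences were above 0, as were 74.4% of all genes tested, and their median was 0.49 against 0.12 over all genes. Without control 1 and mannose 3, 5 of the 10 were above 0 and the median was -0.012, against 0.0096 over all genes. Dpt then stood at -1.05 and Fap at 0.36, and none passed. These 2 tumours were picked from the members' own values, as the lowest and the highest for 9 of the 10 genes each. Leaving both out therefore lowers the difference by construction. Without control 1 alone the median of the members was 0.20, against 0.024 over all genes. Without mannose 3 alone it was 0.28, against 0.11 over all genes. The groups overlapped for all 10 genes, while the mannose tumours lay wholly above the controls for 1.51% of all genes. Skeletal muscle markers, 5 of 7 of which were tested, summed to 28.1 to 593 TPM in controls and 2.48 to 318 TPM with mannose, and macrophage markers to 1662 to 2946 and 2263 to 4594 TPM. Their part in the values of the fibroblast genes was not tested.

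The other stromal genes of the tumours gave the same picture. All 13 fibrillar collagens and partner proteins were tested and 0 passed, with a median log2 difference of 0.72 that became 0.098 without control 1 and mannose 3. Of 17 tested other fibroblast genes, 13 contractile and pericyte genes, 3 genes of platelet-derived growth factor ligands and 7 small leucine-rich proteoglycans (a list that holds Dcn and Lum), none passed by limma. Their medians were 0.30, 0.37, -0.032 and 0.50, and without control 1 and mannose 3 they were -0.076, 0.034, -0.070 and -0.035.

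The sorted CD8 libraries also contained transcripts of all 10 genes, although CD8 T cells are not known for any of the stromal matrix genes among them. T cell markers were abundant, with Cd8a at 582 ± 11.4 TPM in controls and 409 ± 142 TPM with mannose (SD, n = 3 each), but so were markers of other cells. In CD8 controls, the 9 genes other than Pdpn averaged from 6.04% (Mfap5) to 66.9% (Fap) of their mean in control tumours. In CD8 mannose libraries this share was 21.2% (Mfap5) to 69.3% (Pdgfrb) of that in mannose tumours. Pdpn was the exception in both: its mean was 540% of the tumour mean in controls and 111% with mannose. The tables of both tissues list different entries, so these shares are descriptions with no test.

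Within the CD8 controls the order of levels differed from that of the tumours. Pdpn led at 37.8 TPM, above Acta2 at 18.2, Dcn at 7.36 and Pdgfrb at 5.62 TPM, an order held in 3 of 3 libraries. Pi16, Fap and Lum, at 2.10, 2.04 and 2.03 TPM, could not be ordered beyond their spread. With mannose, Acta2 led at 45.6 TPM, followed by Dcn at 22.3 and Pdgfrb at 21.3 TPM, which exchanged places in 1 of 3 libraries. Pdpn came after them at 9.41 TPM.

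Mannose CD8 libraries held more transcript of 5 of the 10 genes and less of 1 than control CD8 libraries, as tested by limma. Dcn, Pdgfra, Pdgfrb, Dpt and Mfap5 passed as higher, by 3.03 to 5.14-fold in mean TPM, and Pdpn fell, its control mean being 4.01-fold the mannose mean. Pdgfra and Dpt, under 1 TPM in every control, and Mfap5, under 1 TPM in 2 of 3, met the filter on low values only through the mannose libraries, so 3 of the 5 calls rest on genes admitted by the group where they were high. With no filter, Dcn, Pdgfrb, Pdgfra and Dpt passed as higher (limma adjusted p = 0.0181, 0.0469, 0.0472 and 0.0386) and Mfap5 did not (0.116), against 10.2% of all genes. Over all 14280 genes tested with the filter, 23.2% rose and 11.7% fell, 34.9% in all, so differences were common in this comparison. Rises were 66.4% of these calls, and 53.7% and 51.5% after quantile and median-ratio scaling. With the like pairs averaged, only Dcn was higher (adjusted p = 0.0494) and Pdpn lower (adjusted p = 0.0120) by limma, against 7.81% and 3.87% of all genes.

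Dcn measured 9.16, 7.98 and 4.93 TPM in controls 1 to 3 and 26.3, 24.1 and 16.4 TPM in mannose 1 to 3. Every mannose library lay above every control, with a log2 difference of 1.49 ± 0.254 (SE, limma adjusted p = 0.00567). It remained past the threshold with each library left out in turn. Its chromosomal neighbour and relative Lum measured 2.77, 2.48 and 0.84 TPM in controls and 2.90, 3.19 and 3.41 TPM with mannose, and with a log2 difference of 0.53 it did not pass (limma adjusted p = 0.199). The groups did not overlap for Lum, but controls 1 and 2 reached nearly the level of the lowest mannose library.

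Both receptors were higher with mannose, but neither call held with like pairs averaged. Pdgfrb measured 7.81, 6.88 and 2.18 TPM in controls and 25.7, 24.7 and 13.6 TPM with mannose, a log2 difference of 1.83 ± 0.427 (SE, limma adjusted p = 0.0169). This was the largest rise among the 10 at a pseudocount of 1, while at 0.1 Mfap5 rose by 2.20 and Pdgfrb by 2.04. Pdgfra measured 0.94, 0.94 and 0.41 TPM in controls and 3.71, 1.76 and 3.10 TPM with mannose, a log2 difference of 1.11 ± 0.258 (SE, limma adjusted p = 0.0167). The mannose libraries lay above the controls for both genes. With like pairs averaged, limma's adjusted p was 0.0815 for Pdgfrb and 0.0539 for Pdgfra.

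The connective tissue markers split. Dpt rose from 0.76, 0.75 and 0.29 TPM to 2.36, 1.89 and 1.57 TPM, a log2 difference of 0.88 ± 0.208 (SE, limma adjusted p = 0.0176, and 0.105 with like pairs averaged). Mfap5 rose from 0.81, 1.84 and 0.43 TPM to 8.18, 5.92 and 1.72 TPM, a log2 difference of 1.52 ± 0.481 (SE, limma adjusted p = 0.0478, and 0.180 with like pairs averaged). The Mfap5 groups overlapped, since mannose 3 lay below control 2, and its call was also lost in 5 of the 6 fits that leave out 1 library, the exception being the fit without mannose 3. Pi16, at 1.83, 1.92 and 2.56 TPM in controls and 4.23, 3.85 and 1.19 TPM with mannose, did not pass (limma adjusted p = 0.529).

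The activation markers did not pass. Acta2 measured 24.3, 22.4 and 8.10 TPM in controls and 57.9, 54.3 and 24.8 TPM with mannose, without overlap, yet with a log2 difference of 1.32 ± 0.471 (SE) its limma adjusted p was 0.0684. It passed without mannose 3 (limma adjusted p = 0.0289). Fap measured 3.34, 2.03 and 0.75 TPM in controls and 3.23, 3.25 and 1.28 TPM with mannose, a log2 difference of 0.28 (limma adjusted p = 0.620).

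Pdpn went the other way, at 40.3, 39.1 and 34.0 TPM in controls and 10.96, 8.14 and 9.13 TPM with mannose. The spread within each group was small beside the gap between them, and the log2 difference was -1.90 ± 0.135 (SE, limma adjusted p = 0.000310). It passed in every fit that left out a library, with like pairs averaged and under each other setting tried. Of the 10 genes, 6 had mannose libraries wholly above the controls, where 33.3% of all genes did, and Pdpn alone lay wholly below, as did 18.1% of all genes.

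**Figure D3:**
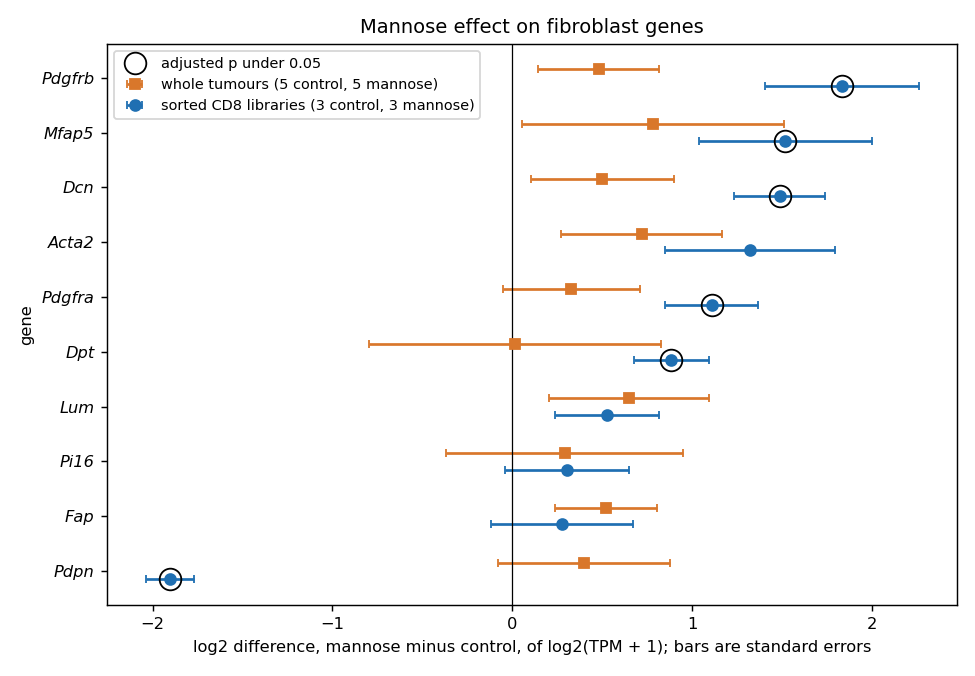
Log2 difference of mannose minus control for each of the 10 genes in whole tumours and in CD8 libraries, with bars of 1 standard error from limma and a line at 0. Circles mark a limma adjusted p under 0.05. In tumours every estimate lies within 2 standard errors of 0, and in CD8 libraries Pdpn lies at -1.90 while the other 9 lie above 0.

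Individual CD8 libraries mattered. Control 3 was the lowest control for 9 of the 10 genes, all but Pi16, and mannose 3 the lowest mannose library for 7. Left out in turn, mannose 1 left 1 gene higher (Dcn, against 13.9% of all genes) and 1 lower (Pdpn, against 6.99%), mannose 2 left Dcn and Pdgfra higher (against 13% of all genes) and control 3 left Dcn and Pdgfrb (against 16.4%). Leaving out mannose 3 gave 7 higher, adding Acta2 and Pi16 to the 5, against 24.4% of all genes. The 9 genes other than Pdpn summed to 51.7, 47.2 and 20.5 TPM in controls 1 to 3 and 134, 123 and 67.0 TPM in mannose 1 to 3.

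Markers of other cell types moved between the same libraries. Of 12 macrophage markers tested, 12 fell and 0 rose by limma, with none at 0, and their sum was 4102 to 4390 TPM in controls and 1140 to 1511 TPM with mannose, as Pdpn also fell. Fcgr1, an antibody receptor of macrophages, went from 77.9 ± 13.2 to 9.70 ± 2.37 TPM and the mannose receptor gene Mrc1 from 204 ± 11.3 to 43.5 ± 9.34 TPM (SD, n = 3 each). Epithelial markers, of which 3 rose and 1 fell among 5 tested, summed to 239 to 535 TPM in controls and 1612 to 2462 TPM with mannose. Krt8, an epithelial keratin that averaged 1486 TPM in control tumours, went from 172 ± 70.8 to 876 ± 190 TPM (SD, n = 3 each). Epcam, a defining epithelial marker, did not reach the filter in either tissue. T cell markers summed to 5560 to 6133 TPM in controls and 2747 to 5699 TPM with mannose, with 2 of 10 lower (0 with like pairs averaged). Both tested mesothelial markers of 8 rose, Msln from 5.73 ± 2.08 to 37.4 ± 9.93 TPM and Krt19, which is also an epithelial marker, with sums of 55.1 to 144 and 458 to 693 TPM. Krt19 made up most of these sums, averaging 101 TPM in controls and 548 TPM with mannose, beside mean sums of 107 and 586 TPM. Of 3 tested skeletal muscle markers 0 passed by limma, and the 1 tested B cell marker, Cd79b, fell but did not pass with like pairs averaged. Mitochondrial transcripts held 3.93 to 4.43% of the TPM in controls and 4.61 to 5.11% with mannose. The part of these cells and of RNA quality in the changes of the fibroblast genes was not tested.

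Lymphatic and blood vessel genes were checked because Pdpn and Pdgfrb also mark vessels. Of 5 tested lymphatic endothelial markers 0 passed by limma, and their sum was 16.6 to 37.0 TPM in controls and 37.3 to 51.0 TPM with mannose, the opposite direction from Pdpn. Of 10 endothelial markers 4 rose (0 with like pairs averaged), with sums of 98.5 to 134 and 123 to 241 TPM. None of the markers in either list was at 0 in a whole group, and their part was not tested.

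**Figure D4:**
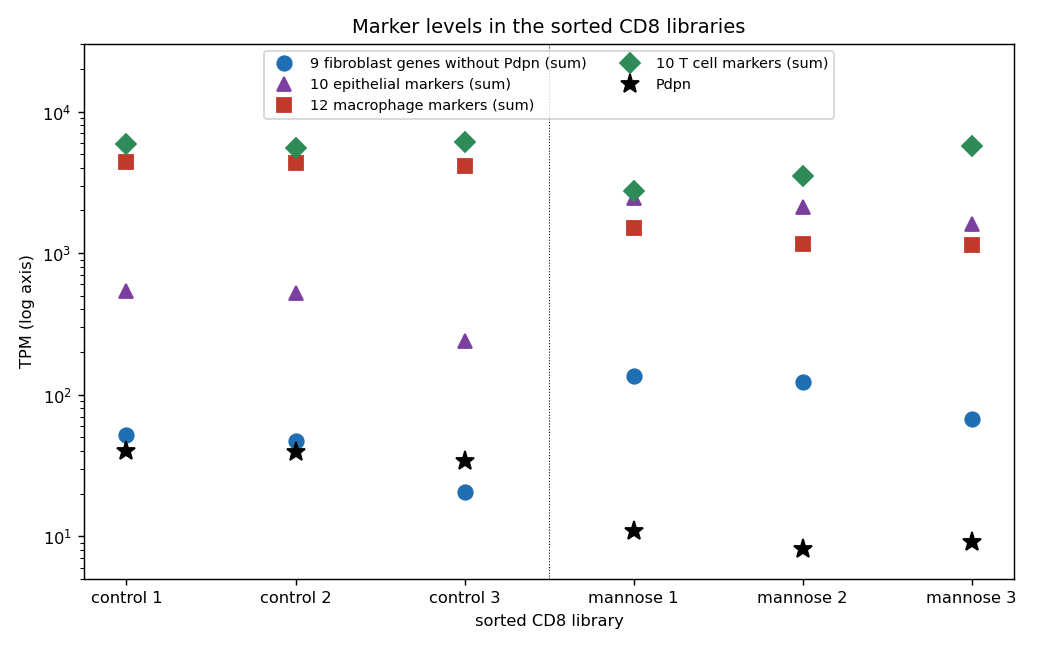
Summed TPM, on a log axis, of the 9 fibroblast genes other than Pdpn, of 3 marker lists and of Pdpn itself in each of the 6 CD8 libraries. The macrophage sum and Pdpn lie lower in all 3 mannose libraries, and the sums of the epithelial markers and of the 9 fibroblast genes lie higher. Not every gene of a list moved with its sum, as Cdh1 among the epithelial markers fell.

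Many other stromal genes were higher in the mannose CD8 libraries as well, though few passed with like pairs averaged. Over all genes, 23.2% rose, and 7.81% did with like pairs averaged, shares to set beside each list below. All 13 tested fibrillar collagens and partners rose, with a median log2 difference of 1.69 against 0.090 over all genes, although 2 did so with like pairs averaged. Bgn, the proteoglycan biglycan, averaged 103 ± 48.0 TPM in controls and 552 ± 135 TPM with mannose (SD, n = 3 each), with a log2 difference of 2.53 (limma adjusted p = 0.00464, and 0.0400 with like pairs averaged). Fn1, which encodes fibronectin, went from 350.4 ± 119 to 1300 ± 263 TPM, a log2 difference of 1.93 (limma adjusted p = 0.00361, and 0.0375 with like pairs averaged). Sparc and Col3a1 rose by 1.94 and 1.97 and did not pass with like pairs averaged.

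Among 16 other fibroblast genes tested, 9 rose and 1 fell. The transcription factor gene Twist1 went from 6.35 ± 2.56 to 34.0 ± 6.77 TPM (SD, n = 3 each, log2 difference 2.30, limma adjusted p = 0.00242). Prrx1, a mesenchymal transcription factor gene, rose by 1.61, and Serping1 and Twist2 by 1.51 and 1.49. The 1 that fell was the complement gene C3, which macrophages also express, by 1.47 on the log2 scale (limma adjusted p = 0.00229). With like pairs averaged, 3 rose and 1 fell. Twist1 and Prrx1 were among those that rose (limma adjusted p = 0.0341 and 0.0481), and Serping1 and Twist2 did not pass (0.0812 and 0.0578).

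Contractile and pericyte genes rose in 10 of 12 tested (2 with like pairs averaged), with a median log2 difference of 1.44. The tropomyosin genes Tpm2 and Tpm1 rose by 2.15 and 1.55, and Rgs5 and Kcnj8, genes of pericytes, by 2.13 and 1.53. With like pairs averaged, Tpm2 and Tpm1 were the 2 that passed (limma adjusted p = 0.0421 and 0.0369). Rgs5 and Kcnj8 did not pass (0.117 and 0.136). Mural cells of vessels also express Acta2 and Pdgfrb. Of 6 tested small leucine-rich proteoglycans, 4 rose (2 with like pairs averaged): Bgn, which is also counted among the collagen partners, Aspn, Dcn and Ogn. Aspn and Ogn rose by 1.83 and 1.38 from means of 1.11 ± 0.878 and 0.467 ± 0.293 TPM (SD, n = 3 each). Neither passed with like pairs averaged (limma adjusted p = 0.0898 and 0.0914). Ogn, so low in the controls, met the filter on low values only through the mannose libraries. Lum and Prelp were those that did not pass.

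The ligands of the platelet-derived growth factor receptors rose with them. Pdgfa averaged 7.69 ± 1.40 TPM in controls and 25.8 ± 4.11 TPM with mannose (SD, n = 3 each), with a log2 difference of 1.63 (limma adjusted p = 0.00164, and 0.0335 with like pairs averaged). Pdgfb went from 16.9 ± 1.61 to 36.8 ± 3.70 TPM, a log2 difference of 1.08 (limma adjusted p = 0.00169, and 0.0345 with like pairs averaged). Pdgfc rose by 1.15 and did not pass with like pairs averaged, and Pdgfd was not tested in these libraries because it was below the filter. The 4 ligand genes summed to 23.4 to 31.4 TPM in CD8 controls and 60.4 to 79.7 TPM in CD8 mannose libraries, beside 67.4 to 85.0 TPM in control tumours and 69.3 to 80.0 TPM in mannose tumours.

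Whether mannose acted differently on the fibroblast genes in the CD8 libraries and in tumours was tested as an interaction over all 16 libraries. The interaction was not fitted with like pairs averaged, so the CD8 libraries of a like pair count as separate samples. Only Pdpn passed, with a CD8 difference below the tumour difference by 2.30 on the log2 scale (SE 0.677, limma adjusted p = 0.0268), against 7.64% of 15498 genes in that direction, 11% in the other and 18.7% in either. It no longer passed when low genes were left in (adjusted p = 0.0627) and in the fits without each of CD8 controls 1, 2 and 3 and mannose 1 and 2 (limma adjusted p from 0.0506 to 0.0671). For Pdgfrb the difference was 1.35 ± 0.589 (SE, limma adjusted p = 0.128), and it passed without tumour control 1 (adjusted p = 0.0203). Dcn, Dpt, Pdgfra, Mfap5 and Acta2 gave 0.99, 0.87, 0.78, 0.74 and 0.60, and Pi16, Lum and Fap gave 0.015, -0.12 and -0.24, none passing. The 5 genes that rose in CD8 libraries and passed no test in tumours were therefore not shown to respond differently in the 2 tissues.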

How the data were processed

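Bulk RNA-seq was carried out on 16 libraries: 10 of HM1 tumour tissue (5 control, 5 mannose) and 6 of sorted CD8 T cells (3 control, 3 mannose). The authors deposited 1 table of TPM values per library. Per the submitters' processing notes, fastp, HISAT, RSEM and the build GRCm39 were used, with no versions given, and the annotation release is not given in the sources used here. The unit was inferred from the column totals, which were 993815 to 997809. TPM carries no library total, so the depth and its counting error are unknown.

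Entries sharing a symbol were summed. Mannose and control were compared with limma 3.58.1 (R 4.3.3, variance trend) on log2(TPM + 1). A gene was tested if it reached 1 TPM in 5 or more tumours or in 3 or more CD8 libraries, and the interaction was fitted over genes with at least 1 TPM in 3 of the 16 libraries. P-values were adjusted over all genes tested (Benjamini-Hochberg), and 0.05 was the threshold. The pseudocount of 1 understates changes of low genes. Pair correlations used 100000 2-sided permutations. The tumour and CD8 fits were tested on simulated data.

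The members and gene lists were chosen with earlier results of these data known. All 10 members were named. From each other list up to 4 genes past the threshold were named, largest change first. The 5 genes of highest r to the members' mean, at a mean of at least 5 TPM, were named as most like them. Alternatives changed the pseudocount, filter, scaling, weights, replicate block, duplicate entries and libraries. No gene coordinates are given, because the reference at hand is an older build; promoter windows carry that build.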

Additional observations from a re-analysis of the deposited data

Results flagged for a closer look

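In 7 of the 20 groups of 5 tumours (10 genes in 2 conditions), 1 tumour lay far from the other 4. This was judged on TPM without a log, where a high value stands out more than on the log scale of the tests. No rate by chance is set beside the count. The genes correlate across the same tumours, so these are not separate trials. In 6 of these it was mannose 3 that was high: Pdgfra at 8.94 TPM with the next tumour at 3.52, Pdgfrb at 46.6 with the next at 29.1, and Lum at 16.4 with the next at 6.48. Dpt at 23.8 TPM (next 4.26), Acta2 at 292 (next 123) and Pdpn at 16.4 (next 8.14) were the others. In the case of Fap, mannose 1 was low, at 2.37 TPM with the next tumour at 4.87. The mannose effect on Pdpn differed between the CD8 libraries and tumours by -2.30 on the log2 scale.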

How the results depend on the processing

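In tumours, 0 fibroblast genes passed under all alternatives, and leaving out 1 library gave 0 to 1 genes of all tested. Tumour differences changed sign for Dpt with quantile normalization (-0.12), median-ratio scaling (-0.0278) and array weights (-1.12), and with array weights also for Pdgfra (-0.000435), Dcn (-0.0267), Pi16 (-0.48) and Pdpn (-0.13). Without control 1 and mannose 3, Pdgfra gave -0.25, Dcn -0.0354, Dpt -1.05, Pi16 -0.50 and Pdpn -0.28. Leaving out 1 library gave Dpt -0.59 to 0.38, Pi16 -0.14 to 0.63 and Pdpn -0.0311 to 0.68.

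In the CD8 libraries, 5 fibroblast genes higher became 2 with a filter at 5 TPM (4 tested, against 24.6% of all genes), 2 with all 16 libraries in 1 fit (17.7%), 1 with like pairs averaged and 1 to 7 with a library left out. They became 7 with array weights (35.8%) and 7 scaled to T cell markers (35.1%). With T cell scaling, Lum and Acta2 also passed by limma (adjusted p = 0.0390 and 0.0137). The log2 difference of Fap ranged from -0.0728 to 0.58 with a library left out. Over all genes, 3306 rose and 1674 fell, with 5114 and 3517 under array weights, 1125 and 558 with like pairs averaged, 5014 and 309 scaled to T cell markers, and 1909 to 3610 and 894 to 2509 with a library left out. Mfap5 no longer passed by limma with quantile normalization, median-ratio scaling or no filter (adjusted p = 0.0757, 0.0576 and 0.116). The median over all genes moved from 0.090 to -0.030, -0.010 and 0.73 under quantile, median-ratio and T cell scaling.

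For the interaction, array weights gave 3478 genes higher, 2845 lower and 2 fibroblast genes higher, and no filter on low values 0 lower. With a library left out, 1139 to 2630 genes were higher and 745 to 1604 lower, with 0 to 1 fibroblast genes in either direction. Pi16 gave -0.0501 and -0.00871 at pseudocounts of 0.1 and 0.5, -0.0968 with quantile normalization, -0.00822 with median-ratio scaling and -0.32 to 0.44 with a library left out. Lum gave 0.26 with array weights and -0.45 to 0.23 with a library left out, and Fap -0.59 to 0.0607. The cause of these shifts was not tested.

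Same-numbered samples deviated together with r from -0.51 to 0.28 in tumours and 0.057 to 0.16 in CD8 libraries, and not every sample correlated best with its own number, so the numbers were not taken as pairs. With the replicate block, 0 genes passed in tumours, 3152 rose and 1686 fell in CD8 libraries with 6 fibroblast genes higher (Acta2 added) and 1 lower, and 1467 and 1026 passed in the interaction, where 1 fibroblast gene (Pdgfrb) was higher and 1 lower.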

Other observations

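Pdgfrb and Csf1r lie next to each other in the RefSeq gene order, and moved in opposite directions in the CD8 libraries. Csf1r, the receptor for the growth factor that maintains macrophages, went from 178 ± 15.3 TPM in controls to 46.7 ± 4.58 TPM with mannose (SD, n = 3 each), a log2 difference of -1.91 (limma adjusted p = 0.000228). Pdgfrb rose by 1.83. Kit, the neighbour of Pdgfra, measured 51.4 ± 15.6 and 39.2 ± 12.1 TPM, and Fas, the neighbour of Acta2, 14.5 ± 4.94 and 14.1 ± 0.566 TPM, and neither passed by limma. These neighbours were picked after their values were seen.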
